A study of Kandelia obovata with 24 samples.

Results

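Leaves of the mangrove *K. obovata* labelled ABA-100 (9.7 ℃) were compared with leaves labelled ABA-100 (-5.3 ℃), which is the step between the coldest sampling and the return of warmth in seedlings assigned to abscisic acid (ABA). The samples were chosen by their labels alone, and they were 6 of the 24 RNA-Seq libraries of the series, 3 in each group. The series followed a natural frost at 10.2, -4.1, -5.3 and 9.7 ℃ in seedlings sprayed with 100 mg ABA per L (ABA-100) and in seedlings without ABA (CK), giving 8 groups of 3 libraries from wild-type leaves. The spray was applied after the sampling at 10.2 ℃, so ABA-100 (9.7 ℃) and ABA-100 (-5.3 ℃) carried the same single spray and differed by stage. The methods place these samplings at opposite clock times on successive dates. Time of day and time since the spray therefore changed together with temperature and cannot be told apart from it. The CK samplings at these labels differed in time of day in the same way. The methods state that leaves came from the same seedlings at each stage, and no source ties a replicate number to a seedling or says how many seedlings went into a library, so all p-values measure the spread between libraries treated as unpaired.

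The labels conflict with the volcano plots of the paper. The plots were not used as data, and the extent of the conflict was not measured here. The library codes deposited as sample descriptions also allow another reading. All 6 libraries share the letter D, the libraries labelled 9.7 ℃ carry the number 4 and those labelled -5.3 ℃ the number 0. Read as a letter for the stage and a number for the treatment, these codes would make the pair the 2 treatments at recovery rather than 2 stages of ABA-100. The libraries labelled CK (9.7 ℃) and CK (-5.3 ℃) share the letter B in the same way. No library was moved to another group here, every direction below holds for the groups as labelled, and stage and treatment cannot be told apart in this pair if the labels are wrong.

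In plants a frost draws water out of cells into ice between them, and leaves that warm again must restore membranes, photosynthesis and the balance of reactive oxygen species. ABA is the hormone of water deficit, which accumulates in chilled or dehydrated tissue and acts through protein phosphatases and kinases to change the transcription of many genes. Ferrochelatase adds the iron of heme, which catalase and peroxidases need, and phenylalanine ammonia-lyase (PAL) opens the phenylpropanoid pathway toward lignin and flavonoids.

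The values were TPM, a transcript abundance corrected for length and library size, for 33344 unigenes assembled without a reference genome. Read counts per unigene were not used here and TPM do not keep them, so no counting error is given. The table pairs identifiers with no gene name, so leaf markers could not be checked and only 12 hub unigenes carried an annotation, from the study's own list. Across the tested unigenes, Pearson's r of log2(TPM + 1) within a group was 0.963 to 0.978, and it was 0.947 to 0.965 between ABA-100 (9.7 ℃) and ABA-100 (-5.3 ℃). The libraries least like their own groups were ABA-100 (9.7 ℃) replicate 1 and ABA-100 (-5.3 ℃) replicate 3, with a mean r of 0.967 and 0.968.

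Transcripts that differed were mostly higher at the label of recovery. A unigene was tested where 3 or more of the 24 libraries reached 1 TPM, and of the 21523 tested 748 (3.48%) were DEGs in ABA-100 (9.7 ℃) against ABA-100 (-5.3 ℃). A DEG had a limma p, adjusted by Benjamini-Hochberg, of at most 0.05 and a log2 fold change of TPM + 1 above 1 in either direction, a scale that understates the change of low unigenes. Among them 676 (3.14% of those tested) were up-regulated and 72 (0.335%) were down-regulated, so 90.4% were up. The median log2 fold change was 1.38 for the up-regulated and -1.38 for the down-regulated DEGs, and 89 and 16 of them lay beyond 2 in their direction.

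The whole distribution was shifted as well. The median log2 fold change over all tested unigenes was 0.14, and 69.4% of them lay above 0. TPM values sum to the same total in each library, so the counts were repeated under other scalings. With median-of-ratios scaling, which sets this median to 0, 497 DEGs were up and 106 were down (82.4% up). With quantile normalization 418 were up and 129 were down (76.4% up), with a median of -0.03. The excess of up-regulated DEGs thus remained under both scalings and was smaller. In bulk leaves, fewer cells of a type and less RNA per cell cannot be told apart.

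Separation between the libraries was common in the whole table. In 8338 unigenes (38.7% of those tested) no library of one group reached into the range of the other, 6950 of them higher and 1388 lower in ABA-100 (9.7 ℃). Of the DEGs, 718 were separated in this way, 652 up and 66 down, which the thresholds favour. In 34 unigenes every ABA-100 (9.7 ℃) library had at least 1 TPM and every ABA-100 (-5.3 ℃) library was listed at 0, and 8 unigenes showed the reverse.

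The number of expressed unigenes and the share of the most abundant ones differed between the groups too. The ABA-100 (9.7 ℃) libraries had 27061, 26613 and 26516 unigenes above 0 TPM, and the ABA-100 (-5.3 ℃) libraries had 25650.0, 25749 and 25545. All 3 recovery libraries were above all 3 at -5.3 ℃, with 26730.0 ± 291 against 25648 ± 102 (SD, n = 3 each, two-sided exact permutation test, p = 0.1, the smallest that 3 against 3 allows). The 10 most abundant unigenes of each library held 14.9, 17.8 and 17.7% of its TPM in ABA-100 (9.7 ℃) and 19.6, 19.6 and 19.9% in ABA-100 (-5.3 ℃) (exact permutation test, p = 0.1). Both summaries were most extreme in replicate 1 of ABA-100 (9.7 ℃), and their part in the counts of DEGs was not tested.

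DEGs were spread over low and moderate levels. Unigenes with a mean of 1 to 3 TPM over the 6 libraries gave 191 up-regulated DEGs of 3437 (5.56%), and those of 3 to 10 TPM gave 213 of 3814 (5.58%). At 30 to 100 TPM 55 of 3625 (1.52%) were up, and at 100 TPM or more 22 of 1182 (1.86%) were. Below 1 TPM, where the added 1 TPM compresses every fold change, 39 of 4377 (0.891%) were up. Down-regulated DEGs numbered 3 to 23 in each class. The up-regulated DEGs together made up 3.22, 2.48 and 2.41% of the TPM of the ABA-100 (9.7 ℃) libraries and 0.902, 0.909 and 0.879% in ABA-100 (-5.3 ℃), values that follow from how they were chosen.

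**Figure D1:**
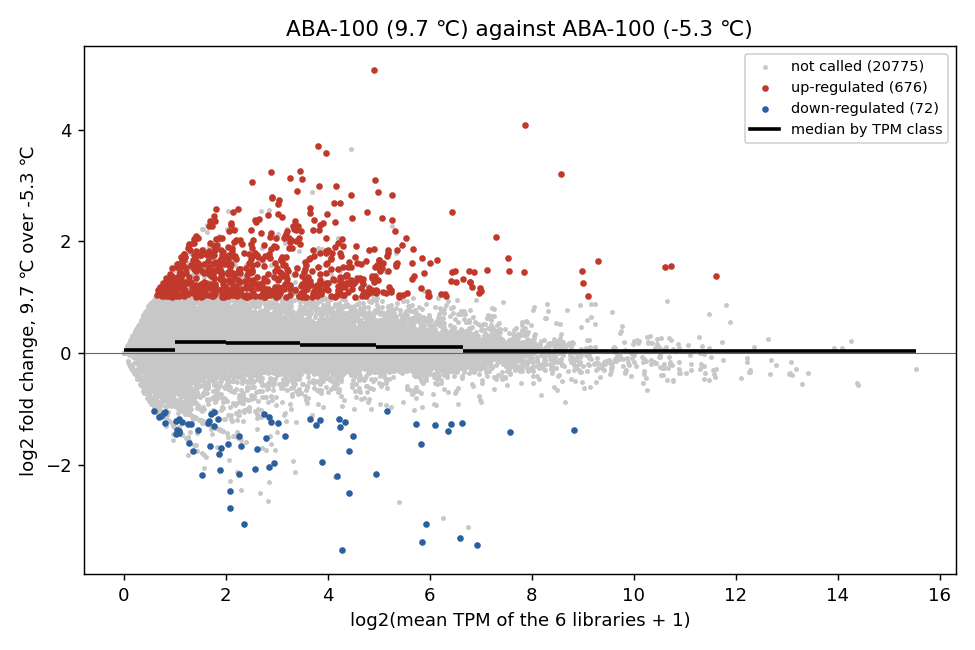
Log2 fold change (TPM + 1, ABA-100 (9.7 ℃) over ABA-100 (-5.3 ℃)) of each tested unigene against its mean TPM over the 6 libraries on a log axis, with up- and down-regulated DEGs coloured. The 676 up-regulated DEGs outnumber the 72 down-regulated ones over most of the range, and the cloud of all unigenes sits slightly above 0, at a median of 0.14.

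Most of the largest up-regulated DEGs were low in ABA-100 (-5.3 ℃), below 5 TPM in every library for all of the 6 but DN7091_c0_g1. The unigenes named here had the largest fold changes among DEGs whose groups did not overlap and whose higher group averaged at least 10 TPM, and none of them has an annotation in the sources used here. DN11574_c0_g1 had 60.9, 47.4 and 60.8 TPM in ABA-100 (9.7 ℃) against 0, 4.02 and 0 TPM in ABA-100 (-5.3 ℃), a log2 fold change of 5.06 ± 0.72 (SE, limma adjusted p = 5.54e-05). The recovery libraries were alike and every one of them lay far above the 1 detectable library at -5.3 ℃. DN5_c0_g1 had 27.9, 27.2 and 28.4 TPM against 1.22, 1.65 and 1.42 TPM (log2 fold change 3.57 ± 0.33, limma adjusted p = 3.22e-07). Both groups of DN5_c0_g1 were tight and widely apart.

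DN8705_c0_g2 reached 13.5, 21.6 and 21.8 TPM in ABA-100 (9.7 ℃), against 1.24, 1.13 and 0.79 TPM in ABA-100 (-5.3 ℃) (3.26 ± 0.20, limma adjusted p = 5.13e-09). DN7547_c0_g1 reached 9.81, 13.5 and 14.1 TPM against 0.44, 0.40 and 0.36 TPM (3.25 ± 0.24, limma adjusted p = 3.31e-08). In both unigenes replicate 1 was the lowest recovery library and still several times above the ABA-100 (-5.3 ℃) libraries. A neighbour of DN8705_c0_g2 from the same assembly cluster, DN8705_c0_g1, was not called and averaged 27.6 ± 2.24 TPM in ABA-100 (9.7 ℃) and 25.0 ± 0.826 TPM in ABA-100 (-5.3 ℃) (SD, n = 3 each). Short reads can be split between such neighbours, which are uncertain for that reason. Of the DEGs 46.3%, and of the tested unigenes 56.9%, shared a cluster with another unigene, tested or not.

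The calls of the other 2 large increases depended more on single libraries. DN7091_c0_g1 had 606, 368 and 346 TPM in ABA-100 (9.7 ℃) against 12.8, 36.5 and 29.9 TPM in ABA-100 (-5.3 ℃), and its log2 fold change was 4.08 ± 1.28 (limma adjusted p = 0.0263). Its libraries were separated, but the SE shared by all groups was wide, and the CK libraries of this unigene scattered (269 ± 217 TPM in CK (9.7 ℃), SD, n = 3). The adjusted p by limma was 0.0892 without ABA-100 (9.7 ℃) replicate 1. It was 0.0894 without ABA-100 (-5.3 ℃) replicate 1 and 0.0600 without ABA-100 (-5.3 ℃) replicate 3. The log2 fold change in these runs was 3.83, 3.65 and 4.23, in that order. DN7088_c1_g1 had 37.0, 18.9 and 19.7 TPM against 1.03, 1.03 and 0.69 TPM (3.71 ± 1.002, limma adjusted p = 0.0115), and without ABA-100 (9.7 ℃) replicate 1 the adjusted p was 0.0522.

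The largest down-regulated DEGs were named only where the higher group, here ABA-100 (-5.3 ℃), averaged at least 10 TPM. Their high values at the coldest label were therefore partly selected. Down-regulated DEGs as a whole were not abundant, with a median of mean TPM of 4.555, against 7.92 for all tested unigenes. DN7051_c0_g1 had 8.17, 10.9 and 8.55 TPM in ABA-100 (9.7 ℃) against 103, 100.3 and 109 TPM in ABA-100 (-5.3 ℃) (log2 fold change -3.37 ± 0.43, limma adjusted p = 1.52e-05). DN8608_c1_g1 had 16.1, 17.0 and 17.4 TPM against 170.3, 168 and 186 TPM (-3.30 ± 0.39, limma adjusted p = 6.14e-06). Both were tight within each group and far apart between them. DN11073_c0_g1 had 26.2, 9.63 and 29.5 TPM in ABA-100 (9.7 ℃) against 207, 242 and 213 TPM in ABA-100 (-5.3 ℃) (-3.42 ± 0.52, limma adjusted p = 1.06e-04). Its replicate 2 was the lowest recovery library, and no library overlapped.

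Of the remaining 3 unigenes with a large fall, DN13682_c0_g1 had 6.24, 5.76 and 4.01 TPM in ABA-100 (9.7 ℃) against 24.5, 33.9 and 48.3 TPM in ABA-100 (-5.3 ℃) (-2.49 ± 0.50, limma adjusted p = 0.00132). DN10875_c0_g1 spread widely, with 4.09, 9.44 and 33.4 TPM against 91.9, 74.9 and 146 TPM (-3.05 ± 0.61, limma adjusted p = 0.00139). DN3142_c0_g1 had 18.1, 0.03 and 0.07 TPM against 33.0, 31.7 and 27.4 TPM (-3.52 ± 0.67, limma adjusted p = 8.93e-04). In DN3142_c0_g1 the fall to near 0 was seen in replicates 2 and 3, while replicate 1 stayed nearer to the level at -5.3 ℃. Its cluster neighbour DN3142_c0_g2 was not called. That neighbour averaged 18.3 ± 1.69 TPM in ABA-100 (9.7 ℃) and 16.3 ± 0.625 TPM in ABA-100 (-5.3 ℃) (SD, n = 3 each). When only the 6 libraries of the comparison set the spread, the limma adjusted p was 0.126 for DN3142_c0_g1 and 0.0595 for DN10875_c0_g1, so neither passed.

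**Figure D2:**
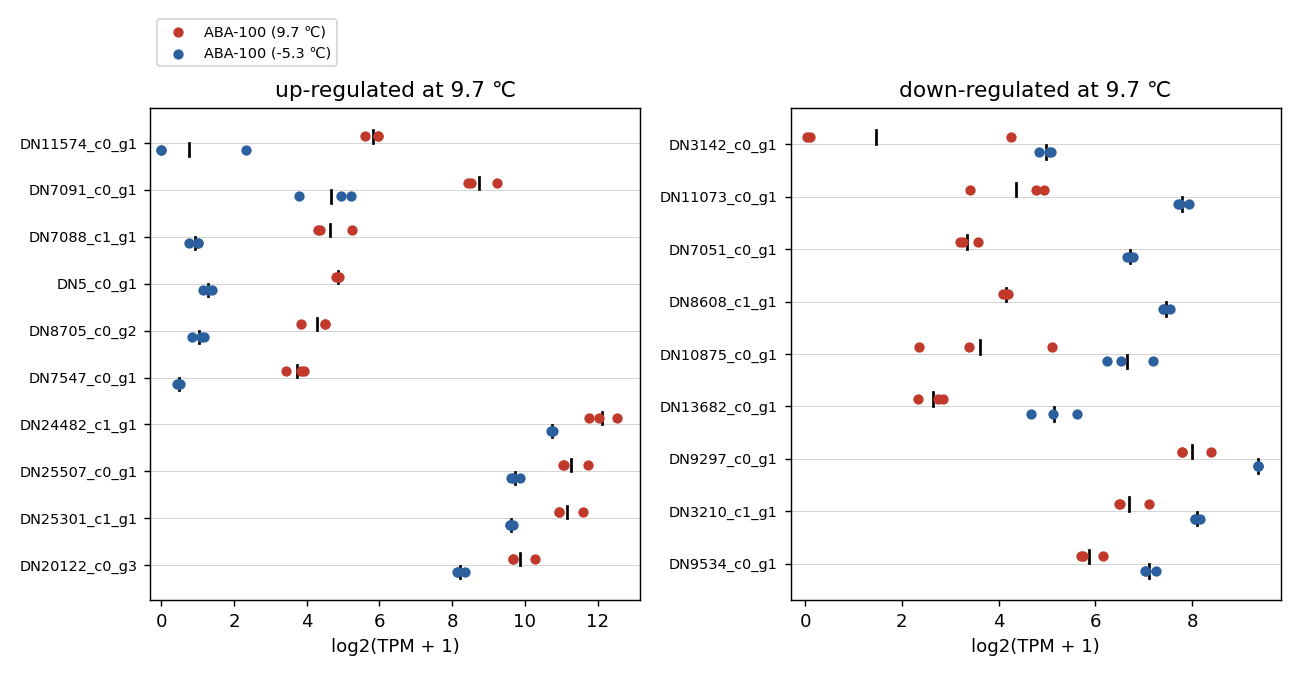
TPM on a log2(TPM + 1) axis in each library for the DEGs named for the largest changes or for the highest abundance. ABA-100 (9.7 ℃) is drawn in red above ABA-100 (-5.3 ℃) in blue. A black tick marks the mean of the log2 values (n = 3). The groups do not overlap in any unigene drawn, which was part of how the largest changes were chosen. In DN3142_c0_g1, ABA-100 (9.7 ℃) replicate 1 stands at 18.1 TPM beside 0.03 and 0.07 TPM.

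The most abundant up-regulated DEGs moved as a block of 4. DN24482_c1_g1 had 5961, 4220.3 and 3472 TPM in ABA-100 (9.7 ℃) against 1706, 1691 and 1738 TPM in ABA-100 (-5.3 ℃) (log2 fold change 1.37 ± 0.17, limma adjusted p = 1.39e-05). DN25507_c0_g1 had 3396, 2104 and 2134 TPM against 929.75, 821 and 784 TPM (1.56 ± 0.17, limma adjusted p = 3.35e-06). DN25301_c1_g1 had 3109, 1953 and 1967 TPM against 766, 807 and 774 TPM (1.55 ± 0.19, limma adjusted p = 1.3e-05). In all 3 unigenes replicate 1 was the highest recovery library, and the lowest recovery library was above every library at -5.3 ℃.

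DN20122_c0_g3 completed the block, with 1230.0, 819 and 811 TPM in ABA-100 (9.7 ℃) against 284, 327 and 282 TPM in ABA-100 (-5.3 ℃) (1.65 ± 0.21, limma adjusted p = 1.81e-05). Over all 24 libraries the pairwise Pearson's r among these 4 unigenes was 0.969 to 0.989, and the ratio of DN24482_c1_g1 to DN25507_c0_g1 stayed between 1.63 and 2.38. These are descriptions over libraries that share groups, and the sequences that would show whether the 4 are parts or copies of one transcript were not used here. Together they held 1.37, 0.910 and 0.838% of all TPM in ABA-100 (9.7 ℃), against 0.369, 0.365 and 0.358% in ABA-100 (-5.3 ℃). The block alone was therefore a visible part of the 2.41 to 3.22% of TPM held by all up-regulated DEGs at recovery. Another unigene of its cluster, DN20122_c0_g1, was also up, with 338 ± 92.4 TPM in ABA-100 (9.7 ℃) and 120.1 ± 6.95 TPM in ABA-100 (-5.3 ℃) (SD, n = 3 each, 1.45, limma adjusted p = 8.70e-06).

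The most abundant down-regulated DEGs included 3 with changes near the median of all down-regulated DEGs. DN9297_c0_g1 had 332, 219 and 221 TPM in ABA-100 (9.7 ℃) against 653, 655 and 656 TPM in ABA-100 (-5.3 ℃) (-1.37 ± 0.32, limma adjusted p = 0.00397). DN3210_c1_g1 had 137, 88.6 and 89.6 TPM against 265, 267 and 286 TPM (-1.40 ± 0.31, limma adjusted p = 0.00297). In both, replicate 1 of ABA-100 (9.7 ℃) lay nearest to the colder group without reaching it. A cluster neighbour of the second, DN3210_c2_g1, passed both thresholds in the other direction (log2 fold change 1.79, limma adjusted p = 5.65e-06). It averaged 7.02 ± 3.18 TPM in ABA-100 (9.7 ℃) and 1.25 ± 0.515 TPM in ABA-100 (-5.3 ℃) (SD, n = 3 each). The other tested neighbours of DN3210_c1_g1 were not called. DN9534_c0_g1 had 51.2, 70.0 and 52.7 TPM against 129, 153 and 132 TPM (-1.25 ± 0.29, limma adjusted p = 0.00430). The other of the 4 most abundant was DN11073_c0_g1, given above.

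The hub unigenes were the only ones with a function attached. The study chose these 12 as leading members of co-expression modules built on the same libraries, so they are not independent evidence of any direction. Past both thresholds 2 were up and 0 were down, beside 3.14% up and 0.335% down over all tested unigenes. By the adjusted p alone 5 were up and 1 was down, beside 23.5% of tested unigenes that passed it in either direction. Their median log2 fold change was 0.59, beside 0.14 over all tested unigenes, and 9 of the 12 had groups that did not overlap, beside 38.7% of tested unigenes.

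All 5 hubs of module MEturquoise passed the adjusted p, with a median log2 fold change of 0.93. The ferrochelatase unigene DN3958_c0_g1, of heme synthesis, had 32.1, 37.4 and 38.3 TPM in ABA-100 (9.7 ℃) against 13.9, 13.2 and 13.9 TPM in ABA-100 (-5.3 ℃) (1.33 ± 0.09, limma adjusted p = 7.19e-09). DN2948_c0_g1, annotated only to the nucleus, had 28.5, 29.9 and 29.0 TPM against 10.9, 11.7 and 8.70 TPM (1.41 ± 0.12, limma adjusted p = 7.94e-08). These were the 2 hubs called as DEGs, and in each the lowest recovery library was more than double the highest at -5.3 ℃. DN8005_c0_g2, placed in sphingolipid metabolism, which makes membrane lipids and signals, had 17.5, 16.6 and 17.4 TPM against 8.18, 8.83 and 8.55 TPM. Its log2 fold change of 0.93 ± 0.13 (limma adjusted p = 3.87e-05) missed the fold threshold, and with 0.1 TPM added in place of 1 it was 1.003 and passed. A low cluster neighbour, DN8005_c0_g3, passed both thresholds (log2 fold change 1.26, limma adjusted p = 3.05e-04), and its other tested neighbours were not called.

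The other MEturquoise hubs belong to opposite sides of protein phosphorylation. The serine/threonine phosphatase unigene DN477_c0_g1, a magnesium-dependent class, had 20.5, 22.1 and 22.7 TPM in ABA-100 (9.7 ℃) against 11.99, 11.1 and 10.9 TPM in ABA-100 (-5.3 ℃) (0.88 ± 0.06, limma adjusted p = 1.83e-08). The serine/threonine kinase unigene DN3221_c0_g1 had 63.7, 60.4 and 62.0 TPM against 40.3, 40.4 and 37.9 TPM (0.64 ± 0.07, limma adjusted p = 4.98e-06). Both were well separated with changes below the fold threshold.

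In module MEgrey the zinc-binding transcription regulator DN1524_c0_g1 moved the other way. It had 7.01, 7.65 and 7.72 TPM in ABA-100 (9.7 ℃) against 15.96, 13.6 and 14.3 TPM in ABA-100 (-5.3 ℃) (-0.88 ± 0.08, limma adjusted p = 1.81e-07). The groups did not overlap, and the change passed the fold threshold under median-of-ratios scaling (-1.03) and quantile normalization (-1.11). The PAL unigene DN13229_c0_g1 was low in both groups, with 3.34, 2.74 and 2.22 TPM against 1.47, 1.17 and 1.45 TPM (0.66 ± 0.40, limma adjusted p = 0.248). Its libraries did not overlap, yet the change did not pass. The MAP kinase kinase kinase unigene DN3196_c0_g1, of the first tier of the MAPK cascade, had 11.7, 12.8 and 11.99 TPM against 11.5, 10.7 and 11.9 TPM (0.09 ± 0.19, limma adjusted p = 0.770). Its groups overlapped, and the sign turned under median-of-ratios scaling (-0.06) and quantile normalization (-0.10).

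None of the 4 MEbrown hubs passed either threshold (median log2 fold change 0.31). DN7698_c0_g1, anchored to the plasma membrane, had 75.4, 60.0 and 61.6 TPM in ABA-100 (9.7 ℃) against 46.1, 45.5 and 42.4 TPM in ABA-100 (-5.3 ℃) (0.54 ± 0.20, limma adjusted p = 0.0560). The NAD(P)H oxidoreductase unigene DN7864_c0_g1, of a class that produces reactive oxygen at the membrane, had 7.85, 4.52 and 5.64 TPM against 4.27, 4.25 and 3.74 TPM (0.44 ± 0.27, limma adjusted p = 0.265). In these 2 unigenes the groups did not overlap. A cluster neighbour of the first, DN7698_c0_g2, passed both thresholds (log2 fold change 2.37, limma adjusted p = 2.64e-04). It averaged 4.80 ± 0.544 TPM in ABA-100 (9.7 ℃) and 0.12 ± 0.125 TPM in ABA-100 (-5.3 ℃) (SD, n = 3 each). The tested cluster neighbours of DN5170_c1_g1 were not called. In DN5170_c1_g1, annotated to DNA binding, only replicate 1 stood out, with 22.1, 11.2 and 11.5 TPM against 12.3, 12.4 and 12.5 TPM (0.18 ± 0.30, limma adjusted p = 0.706), and without that library the value was -0.12. The membrane unigene DN8109_c0_g1 had 2.50, 1.54 and 1.5 TPM against 2.10, 2.33 and 2.05 TPM (-0.17 ± 0.39, limma adjusted p = 0.801).

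**Figure D3:**
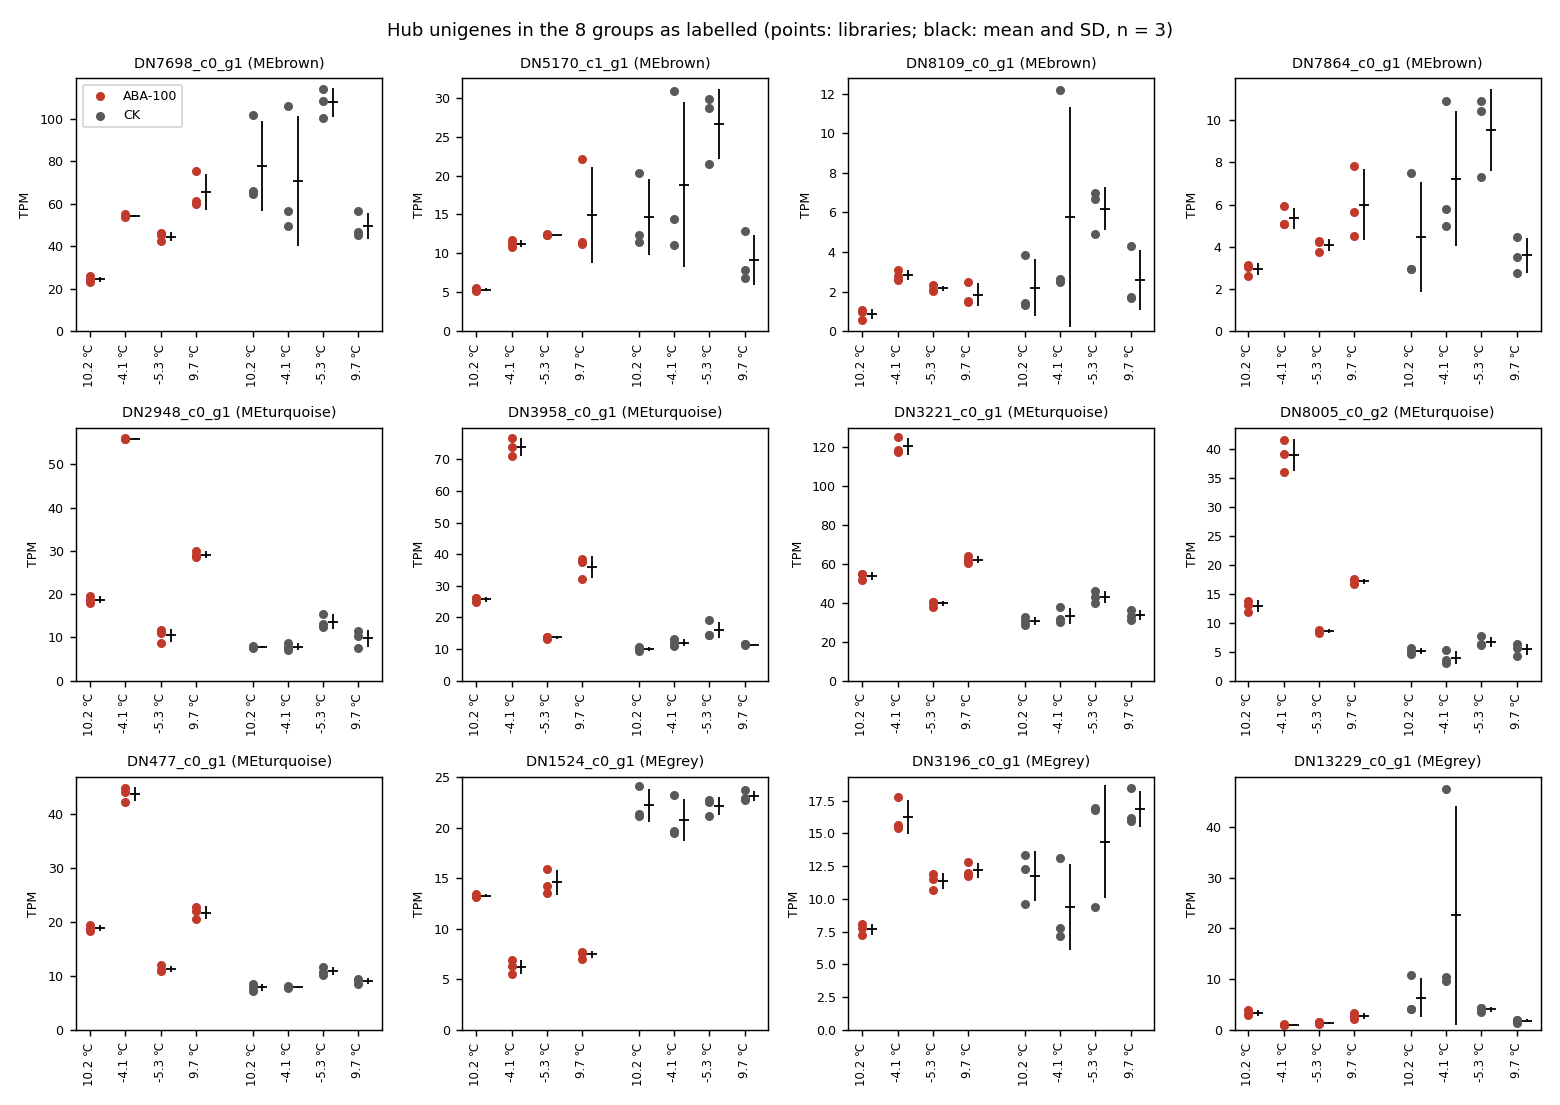
Mean TPM ± SD (n = 3) of the 12 hub unigenes by labelled stage, ABA-100 on the left and CK on the right of each panel. In the MEturquoise panels ABA-100 (-5.3 ℃) dips between higher neighbours, as for ferrochelatase at 13.6 TPM between 73.9 TPM at -4.1 ℃ and 35.9 TPM at 9.7 ℃.

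Placing both groups among all 8 shows which of them stood apart. These places were looked up after the values had been seen and are given without a test, and the direction of a call fixes part of each count. For 530 of the 676 up-regulated DEGs (78.4%) ABA-100 (-5.3 ℃) had the lowest of the 4 ABA-100 means, against 26.7% of tested unigenes. For 68 of the 72 down-regulated DEGs (94.4%) it had the highest, against 15.8% of tested unigenes. ABA-100 (9.7 ℃) was the highest of all 8 groups for 296 up-regulated DEGs, beside 3769 of the 21523 tested unigenes, and the lowest of 8 for 18 down-regulated ones, beside 1076 tested. ABA-100 (-5.3 ℃) was the lowest of 8 for 200 up-regulated DEGs, beside 3378 tested, and the highest of 8 for 47 down-regulated ones, beside 1298 tested.

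For a minority of the DEGs the other ABA-100 groups all lay on one side of the CK means, and ABA-100 (-5.3 ℃) did not. For 208 up-regulated DEGs (30.8%) the means of ABA-100 at 10.2, -4.1 and 9.7 ℃ exceeded every CK mean, while ABA-100 (-5.3 ℃) lay within or below the CK range, a pattern found in 723 tested unigenes (3.36%). The mirrored pattern held for 7 down-regulated DEGs (9.72%) and 400 tested unigenes (1.86%). DN5_c0_g1 averaged 17.5, 17.2, 1.43 and 27.8 TPM in ABA-100 at 10.2, -4.1, -5.3 and 9.7 ℃, and 0.783, 0.533, 2.71 and 0.863 TPM in CK at the same labels. DN8705_c0_g2 averaged 12.4, 12.6, 1.05 and 19.0 TPM in ABA-100 and 0.420, 0.627, 0.680 and 0.390 TPM in CK. In both, 3 of the ABA-100 groups were high, including the leaves taken before the spray, and ABA-100 (-5.3 ℃) was low. Its mean lay within the range of the CK means for DN5_c0_g1 and slightly above that range for DN8705_c0_g2.

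Levels of other up-regulated DEGs differed among the high groups. DN7547_c0_g1 averaged 4.66, 28.5, 0.4 and 12.4 TPM in ABA-100 at 10.2, -4.1, -5.3 and 9.7 ℃, against 0.587, 0.517, 2.01 and 0.540 TPM in CK. The ferrochelatase unigene averaged 25.7, 73.9, 13.6 and 35.9 TPM in ABA-100, against 10.1, 12.02, 15.96 and 11.4 TPM in CK. For ferrochelatase the ABA-100 means therefore ran in the order -4.1, 9.7, 10.2 and -5.3 ℃, with no overlap between neighbours in that order. DN11574_c0_g1 departed from this, since CK was high at 37.1, 90.9, 92.1 and 98.9 TPM and ABA-100 averaged 8.43, 84.0, 1.34 and 56.4 TPM.

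Among the down-regulated DEGs the peak at ABA-100 (-5.3 ℃) was often the highest of the series. DN7051_c0_g1 averaged 7.25, 19.4, 104 and 9.20 TPM in ABA-100 at 10.2, -4.1, -5.3 and 9.7 ℃, against 50.3, 14.35, 24.4 and 6.51 TPM in CK. DN8608_c1_g1 averaged 15.3, 35.6, 175 and 16.8 TPM in ABA-100, against 75.8, 26.4, 38.8 and 13.04 TPM in CK. In CK the highest mean of both fell at 10.2 ℃, with SDs of 51 and 67 TPM that nearly equal the means. Replicate 3 alone raised these CK (10.2 ℃) means. The libraries had 20.0, 22.1 and 109 TPM for DN7051_c0_g1 and 34.5, 39.6 and 153 TPM for DN8608_c1_g1.

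**Figure D4:**
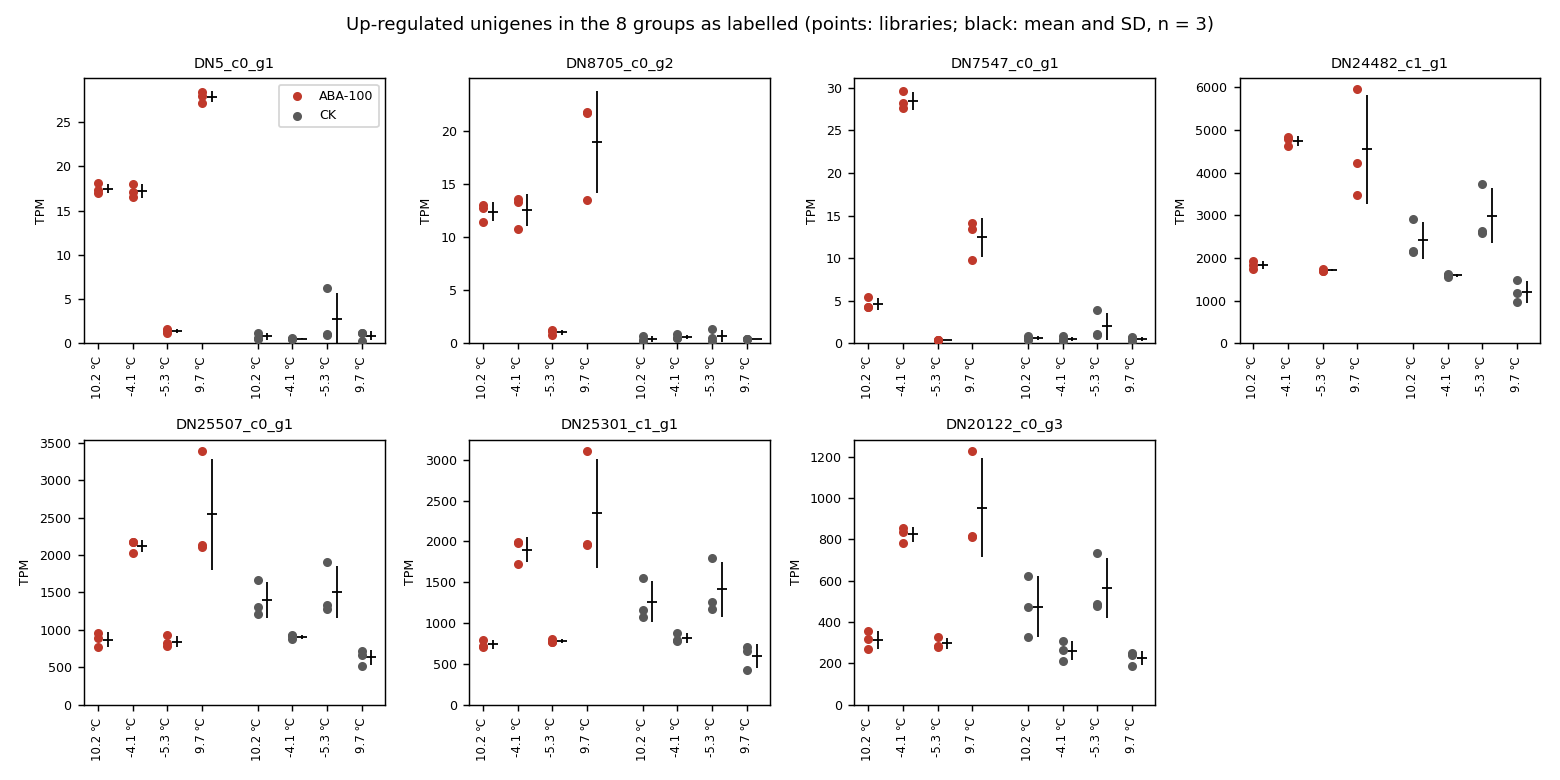
Mean TPM ± SD (n = 3) by labelled stage, ABA-100 on the left and CK on the right of each panel. The panels show DN5_c0_g1, DN8705_c0_g2 and DN7547_c0_g1, which were among the most increased DEGs, and the 4 most abundant up-regulated DEGs. DN5_c0_g1 and DN8705_c0_g2 are high in the ABA-100 groups at 10.2, -4.1 and 9.7 ℃ and low in ABA-100 at -5.3 ℃ (1.43 and 1.05 TPM).

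The same labelled step was examined in CK, which shares no library with ABA-100. In CK (9.7 ℃) against CK (-5.3 ℃) 217 unigenes (1.01% of those tested) were DEGs, 52 up and 165 down, with a median log2 fold change of -0.07 over all tested unigenes. Of the 676 unigenes up in ABA-100, 10 were up and 41 were down in CK, and 29.3% had a positive change in CK, against 35.2% of tested unigenes. Of the 72 down in ABA-100, 3 were up and 18 were down in CK, and 65.3% had a negative change in CK, against 62.1% of tested unigenes. Across all tested unigenes the 2 changes were almost unrelated, with a Pearson's r of -0.04, which is a description because unigenes are not independent replicates.

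The difference between the 2 steps was then tested as an interaction, the ABA-100 change minus the CK change. It passed both thresholds in 1201 unigenes (5.58%), 1101 of them positive and 100 negative, with a median of 0.22 over all tested unigenes. Under median-of-ratios scaling 694 were positive and 187 negative (78.8% positive), and under quantile normalization 565 and 235 (70.6% positive), against 91.7% without rescaling. Of the 748 DEGs, 532 also passed the interaction test with the same sign as their own change, 501 up and 31 down. The interaction contains the ABA-100 change of the same libraries, so this overlap is largely built in and is no further evidence for those DEGs. Among the 1101 positive unigenes, 460 were DEGs up in ABA-100 with no call in CK, 77 were down in CK with no call in ABA-100, 42 were called in both and 522 in neither.

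The abundant block of 4 moved in opposite directions in the 2 treatments. DN24482_c1_g1 averaged 4551 ± 1277 TPM in ABA-100 (9.7 ℃) and 1711 ± 24.3 TPM in ABA-100 (-5.3 ℃), while it averaged 1206 ± 257 TPM in CK (9.7 ℃) and 2993 ± 651 TPM in CK (-5.3 ℃) (SD, n = 3 each). The interaction of the 4 was 2.68 to 2.95 on the log2 scale. DN4077_c0_g1 had 56.0, 74.1 and 68.5 TPM in ABA-100 (9.7 ℃) against 8.92, 7.36 and 9.01 TPM in ABA-100 (-5.3 ℃), and averaged 4.21 ± 1.71 TPM in CK (9.7 ℃) and 19.7 ± 4.70 TPM in CK (-5.3 ℃). Its change was 2.83 in ABA-100 and -2.03 in CK, an interaction of 4.86 ± 0.27 (SE, limma adjusted p = 4.96e-09). DN7273_c0_g1 had 21.5, 45.6 and 43.7 TPM against 5.61, 6.07 and 5.56 TPM in ABA-100, with a change of 2.42 in ABA-100 and -1.90 in CK (interaction 4.32 ± 0.59, limma adjusted p = 3.28e-05).

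Negative interactions were fewer. DN7832_c0_g1 had 22.3, 32.0 and 37.1 TPM in ABA-100 (9.7 ℃) against 72.2, 78.3 and 69.7 TPM in ABA-100 (-5.3 ℃), a change of -1.27 against 1.97 in CK (interaction -3.24 ± 0.45, limma adjusted p = 3.94e-05). The low, scattered DN11485_c0_g1 had 0, 3.55 and 7.16 TPM against 8.47, 11.9 and 24.2 TPM, which did not pass in ABA-100 (-2.12, limma adjusted p = 0.198). Its interaction of -5.47 (limma adjusted p = 0.0174) was lost without ABA-100 (9.7 ℃) replicate 1 (adjusted p = 0.0575) or CK (9.7 ℃) replicate 1 (adjusted p = 0.0506). DN9297_c0_g1 and DN3210_c1_g1 fell in both treatments, by 2.62 and 2.04 on the log2 scale in CK.

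Hub unigenes also differed between the steps. The ferrochelatase unigene changed by 1.33 in ABA-100 and by -0.44 in CK, an interaction of 1.78 ± 0.12 (SE, limma adjusted p = 2.64e-08). The plasma membrane hub DN7698_c0_g1 changed by 0.54 in ABA-100 and by -1.11 in CK (1.65 ± 0.28, limma adjusted p = 2.87e-04). For DN7698_c0_g1 the larger part of the difference lay in CK, where it fell to 49.6 ± 6.24 TPM in CK (9.7 ℃), against 108 ± 6.75 TPM in CK (-5.3 ℃) (SD, n = 3 each).

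**Figure D5:**
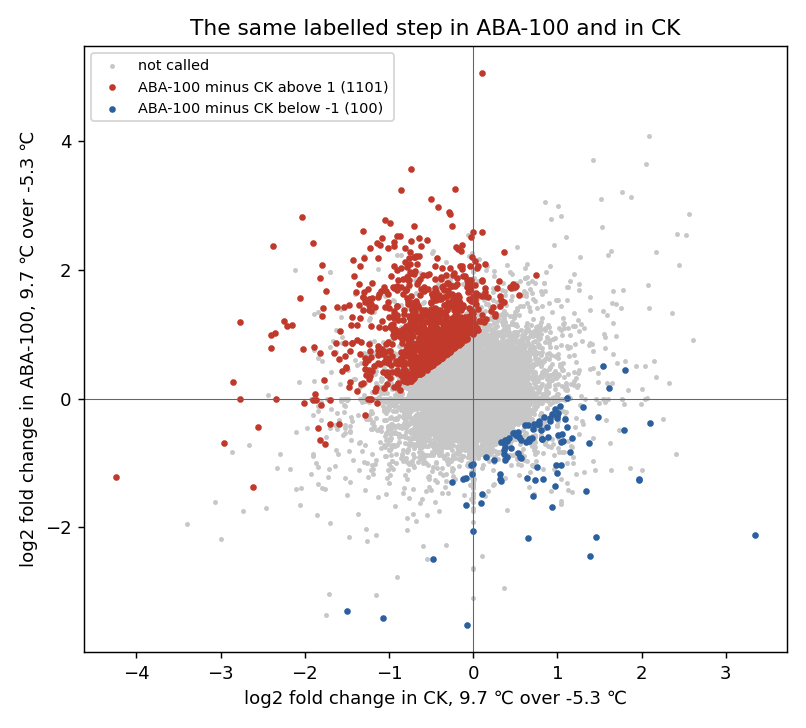
Log2 fold change (TPM + 1) of 9.7 ℃ over -5.3 ℃ in ABA-100 (vertical axis) against the same fold change in CK (horizontal axis) for every tested unigene, with the 1201 unigenes that passed the interaction test coloured by sign. In the 1101 positive ones the signed change in ABA-100 was above that in CK, and the cloud shows no common trend (Pearson's r = -0.04).

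Of the 6 libraries, replicate 1 of ABA-100 (9.7 ℃) was the least like its own group. Unigenes with a group mean of at least 10 TPM in which it lay farthest from the other 2 libraries are given as values only. DN12008_c0_g1 had 28.9, 1.81 and 1.68 TPM in ABA-100 (9.7 ℃) against 0.04, 0 and 0.08 TPM in ABA-100 (-5.3 ℃). DN10377_c0_g2 had 35.1, 4.24 and 1.97 TPM against 0.75, 0.25 and 0.44 TPM, and DN16331_c0_g2 had 29.95, 7.67 and 0 TPM against 18.1, 0 and 0 TPM. The first 2 were above the colder group in every recovery library, and DN16331_c0_g2 was detected in only some libraries of either group. Without replicate 1 of ABA-100 (9.7 ℃) 655 DEGs were found, 533 of them shared with the 748. Without both libraries least like their groups, an alternative chosen after seeing the data, 569 DEGs were found, 484 up and 85 down, 468 of them shared with the 748.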

How the data were processed

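RNA-Seq of *K. obovata* leaves gave 24 libraries, 3 for each of 8 labelled groups. Per the methods, reads were cleaned by the authors (SeqPrep, Sickle), assembled de novo (Trinity) and quantified by RSEM. The deposited values are TPM, which correct for transcript length and give each library one total. Versions are not given in the sources used here. TPM keep no read counts, so the number of reads behind a single value is unknown. The authors called DEGs with DESeq2, which needs counts, so limma 3.58.1 (R 4.3.3, trend in the prior variance) was fitted here to log2(TPM + 1) over all 24 libraries with 1 mean per group. The test was tried on simulated data. Groups came from the sample titles, and every column was used.

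A DEG had an adjusted p of at most 0.05 (Benjamini-Hochberg over the 21523 unigenes that reached 1 TPM in 3 or more libraries) and an absolute log2 fold change above 1. Named unigenes were the 6 largest changes in each direction among non-overlapping DEGs with at least 10 TPM in the higher group, the 4 most abundant DEGs in each direction, the 12 hubs, the 3 largest interactions of each sign with at least 10 TPM in a group, and the 3 largest departures of the library least like its group. The members and lists were chosen with earlier results of these data known. Pseudocounts, filters, scalings, thresholds, library weights, a replicate block and single omissions were tried. Enrichment and cell type markers were left out because identifiers are not paired with names. Figures used matplotlib 3.10.9.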

Additional observations from a re-analysis of the deposited data

Results flagged for a closer look

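Each result here was picked out because the change of 9.7 ℃ against -5.3 ℃ differed between ABA-100 and CK in the interaction test of limma, past an adjusted p of 0.05 and a difference above 1 on the log2 scale. This held for 1201 unigenes.

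In a positive difference the signed ABA-100 change was above the CK change, also where the larger change was a fall in CK. The positive differences were 4.95 for DN11574_c0_g1, 4.86 for DN4077_c0_g1, 4.32 for DN7273_c0_g1, 4.31 for DN5_c0_g1, 4.11 for DN7547_c0_g1 and 3.48 for DN8705_c0_g2. In the abundant block they were 2.95 for DN20122_c0_g3, 2.79 for DN25507_c0_g1, 2.79 for DN25301_c1_g1 and 2.68 for DN24482_c1_g1. Among the hubs they were 1.86 for DN2948_c0_g1, 1.78 for the ferrochelatase unigene DN3958_c0_g1, 1.66 for DN5170_c1_g1, 1.65 for DN7698_c0_g1, 1.63 for the NAD(P)H oxidoreductase unigene DN7864_c0_g1, 1.21 for DN8005_c0_g2 and 1.12 for the phosphatase unigene DN477_c0_g1. Both DN8005_c0_g2 (0.98 and 0.90) and DN477_c0_g1 (0.89 and 0.83) fell short of the size threshold under median-of-ratios scaling and quantile normalization. DN9297_c0_g1 differed by 1.25 and DN10377_c0_g2 by 3.14. The call of DN9297_c0_g1 was lost without ABA-100 (9.7 ℃) replicate 1 (1.05, limma adjusted p = 0.121), among others, and that of DN10377_c0_g2 without the same library (2.07, limma adjusted p = 0.0752), among others.

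The negative differences were -5.47 for DN11485_c0_g1, -3.45 for DN3142_c0_g1, -3.24 for DN7832_c0_g1, -2.35 for DN11073_c0_g1, -2.07 for DN9534_c0_g1, -2.01 for DN13682_c0_g1 and -1.80 for DN8608_c1_g1. The call of DN11073_c0_g1 was lost without ABA-100 (9.7 ℃) replicate 2 (-1.87, limma adjusted p = 0.0641). That of DN13682_c0_g1 was lost in most omissions of single libraries, with a limma adjusted p of up to 0.107. The call of DN3142_c0_g1 was lost when only the libraries compared set the spread (limma adjusted p = 0.0792), and that of DN8608_c1_g1 without both libraries least like their groups (-1.72, limma adjusted p = 0.0824). That of DN11485_c0_g1 was lost without ABA-100 (9.7 ℃) replicate 1 or CK (9.7 ℃) replicate 1. The cause of these differences was not tested.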

How the results depend on the processing

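The direction of the excess held in every alternative run, with more up- than down-regulated DEGs, and the counts moved with the choice of scale and threshold. The 748 DEGs became 1138 with 0.1 TPM added (1037 up), 241 with 5 TPM added (214 up, 27 down), 253 at a mean of at least 10 TPM (227 up, 26 down) and 5065 by the adjusted p alone (4364 up, 701 down). Quantile normalization gave 418 up and 129 down, and library weights gave 132 down. For the CK step the 217 DEGs became 95 with 5 TPM added, 103 at a mean of at least 10 TPM, 128 when its own libraries set the spread, 446 with library weights, 2396 by the adjusted p alone and 127 at an adjusted p of 0.01. The 1201 interactions became 478 with 5 TPM added, 466 at a mean of at least 10 TPM, 800 with quantile normalization and 5955 by the adjusted p alone. Leaving out single libraries gave 639 to 805 DEGs, 552 to 744 up, 61 to 87 down, 177 to 263 in CK and 1013 to 1307 interactions. Libraries of one number were not paired, since no source ties a number to a seedling. The correlation of their deviations was 0.03 to 0.04, against -0.024 to -0.0084 between unlike numbers, so every library correlated best with its own number. With 3 libraries behind each group mean, values this small cannot decide whether the numbers mark seedlings. With the replicate block there were 750.0 DEGs (675 up, 75 down), 734 of them shared with the 748, 203 in CK and 1204 interactions. Of 712 values of the 38 named unigenes under alternatives 8 changed sign, all in unigenes that had not passed. They were DN5170_c1_g1 with quantile normalization (-0.015), library weights (-0.0405), without ABA-100 (9.7 ℃) replicate 1 (-0.12, with -0.12 to 0.34 over all single omissions) and without both libraries least like their groups (-0.11), DN3196_c0_g1 with median-of-ratios scaling (-0.064) and quantile normalization (-0.10), and DN16331_c0_g2 with library weights (-0.29) and without both libraries (-0.57). The difference in unigenes above 0 TPM was 1082, with 916.5 to 1189 on leaving out single libraries and 901.3 at 1 TPM or more. The difference in the share of the 10 most abundant was -2.85 percentage points, with -3.34 to -1.90 on leaving out single libraries and -4.16 for the 100 most abundant. Read counts per unigene were not used, so no counting error can be set beside values near 0 TPM.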
